A study of Mus musculus with 6 samples.

Results

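The alpha-arrestins examined here were Txnip, Arrdc1, Arrdc2, Arrdc3 and Arrdc4, chosen as a family by gene name, with earlier results of these data known. All 5 were found among the 49315 genes of the deposited count table. Bulk RNA sequencing was done on 6 heart samples of the C57BL/6 mouse strain. There were 3 wild-type hearts, labelled Txnip WT, and 3 hearts of the conditional knock-in, labelled as the Txnip C247S mutant. The same treatment entry, MerCreMer with 4-hydroxytamoxifen, is attached to both genotypes. MerCreMer is a Cre recombinase that acts only once this tamoxifen metabolite is present. Its promoter, the cells in which it acted, and whether the wild-type mice carried it are not stated in the labels, nor are age, sex or litter. Hearts are numbered 1 to 3 within a genotype in deposit order, which pairs none of them. Nothing in the labels says that each came from its own mouse, so p-values measure the spread between these samples, which may be technical.

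Library totals ran from 14146048 to 15620476 counts, and 12777 genes, all 5 alpha-arrestins among them, had enough counts to be tested. Cardiomyocyte markers (Myh6, Tnnt2, Tnni3, Actc1, Ryr2 and Myl2) summed to 53578 to 66679 CPM (counts scaled to a common library size) over the 6 libraries, so the defining genes of the labelled tissue were present. Markers of lung, fat, skeletal muscle and lymphocytes were too low to test. Wild-type heart 3 had the highest share of counts from mitochondrial genes, 28.0%, against 22.9% to 24.3% in the others. Wild-type heart 3 and knock-in heart 2 stood apart from their own genotype: pairs of libraries that held either had a chi-square per degree of freedom of 14 to 25.1 over genes, against 6.7 and 7.0 for the other pairs. Fold changes and family values that moved by over 1.5 times without either heart are given beside the result.

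Alpha-arrestins are adaptor proteins with an arrestin fold and short proline-rich motifs in their tails. The motifs bind the WW domains of NEDD4-family ubiquitin ligases, and the adaptors bring these ligases to membrane proteins, which are then internalised or sorted. Txnip, the thioredoxin-interacting protein, is the member that also binds thioredoxin. It limits glucose uptake through the glucose transporters, and its gene is induced when the factors MondoA and ChREBP sense glucose metabolites. The C247S substitution replaces the cysteine that forms the disulfide bond with thioredoxin. Arrdc4 is a close relative that is also a MondoA target and also restrains glucose uptake. Arrdc3 is an adaptor for the beta2-adrenergic receptor, and Arrdc1 drives the release of small vesicles from the plasma membrane with the ESCRT protein Tsg101. Arrdc2 is the least studied of the family.

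The codon of the substitution is shown because the genotype is defined by it. The residue named in C247S is a cysteine in the Txnip transcript of 396 codons, at chr3:96559753-96559755 on the plus strand (GRCm38, GENCODE M21), in exon 5 of 8. In the annotated transcript of 397 codons the residue of that number is encoded by ACT, the codon just before this cysteine. The reference reads as follows, with the wild-type cysteine codon in capitals.
Txnip cysteine codon: tatctcagggactTGCgcatcgtggcgtg
The counts are per gene and do not show which allele was read.

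RefSeq promoter sequences (GRCm38.p6) were held for all 5 genes, in 7 windows, since Arrdc3 has 3 listed start sites. The 250 bases before the start are shown for Txnip, the member that changed, for Arrdc4, the member with the same glucose-sensing regulator, and for Arrdc2, the member that varied most between hearts. Capitals mark 4 motifs searched on both strands: CCAAT, the box bound by NF-Y; CACGTG, the E-box; a pair of CACGNG elements with NNNNN between them, the layout of a carbohydrate response element; and GTAAACA, a forkhead motif. No matches overlap in these windows.
Txnip, chr3:96557707-96557956, plus strand: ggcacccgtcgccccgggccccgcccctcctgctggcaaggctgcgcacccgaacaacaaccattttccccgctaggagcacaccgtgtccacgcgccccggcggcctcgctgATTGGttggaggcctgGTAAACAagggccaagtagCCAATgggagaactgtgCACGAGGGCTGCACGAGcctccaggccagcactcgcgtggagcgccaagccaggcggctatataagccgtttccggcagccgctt
Arrdc4, chr7:68749239-68749488, minus strand: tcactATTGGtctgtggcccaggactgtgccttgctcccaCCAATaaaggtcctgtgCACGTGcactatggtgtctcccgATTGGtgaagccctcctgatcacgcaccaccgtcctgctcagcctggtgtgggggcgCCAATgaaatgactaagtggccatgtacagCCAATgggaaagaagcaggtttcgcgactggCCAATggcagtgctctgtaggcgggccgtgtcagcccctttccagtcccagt
Arrdc2, chr8:70839721-70839970, minus strand: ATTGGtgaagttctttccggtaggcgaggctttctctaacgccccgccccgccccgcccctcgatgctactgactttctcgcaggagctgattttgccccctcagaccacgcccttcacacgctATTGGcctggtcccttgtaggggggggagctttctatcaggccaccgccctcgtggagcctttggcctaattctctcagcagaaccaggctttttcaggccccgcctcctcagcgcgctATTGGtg

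The Txnip window held the paired element, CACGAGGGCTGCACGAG, from 85 to 69 bases before the start. The same pattern was found in 15 of 32851 promoter windows of this length (0.0457%), and in none of the windows of the other 4 genes. Only the N positions were free to vary, so looser forms of the element were not counted and the share depends on that choice. Txnip also held the forkhead motif from 121 to 115 bases before the start, a match present in 3.17% of all windows. CCAAT, present in 33.8% of all windows, matched at 2 places in Txnip, 6 in Arrdc4 and 3 in Arrdc2. The E-box CACGTG, present in 6.02% of all windows, matched in Arrdc4 at 193 to 188 bases before the start and in no other member. The Arrdc1 window held none of the 4 motifs, and Arrdc3 held a single CCAAT in 2 of its 3 windows, which overlap. These matches describe letters in the sequence and were not tested for binding.

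Txnip was by far the most abundant alpha-arrestin transcript in each heart. Levels were compared between genes as RPKM, here the TMM-scaled CPM divided by the length in kilobases of all annotated exons joined. Txnip averaged 241 ± 11.3 RPKM in wild-type and 134 ± 8.0 RPKM in knock-in hearts (SD, n = 3 per genotype). Arrdc2 followed at 5.43 ± 4.26 and 6.82 ± 3.36 RPKM, and Arrdc3 at 4.78 ± 0.493 and 5.76 ± 1.01 RPKM. Arrdc4 stood at 1.32 ± 0.196 and 1.53 ± 0.212 RPKM. Arrdc1 was lowest, at 0.530 ± 0.0538 and 0.564 ± 0.182 RPKM.

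The gap below Txnip was wide: its RPKM was 14.6 to 209 times that of Arrdc2 within the same heart. Arrdc2 and Arrdc3 could not be ordered, since Arrdc2 was higher in 4 of 6 hearts and lower in wild-type heart 3 and knock-in heart 2. Arrdc3 exceeded Arrdc4 in all 6 hearts, by 2.97 to 4.76 times, and Arrdc4 exceeded Arrdc1 in all 6, by 1.84 to 4.04 times. Neither pair overlapped over the 6 hearts. Arrdc5, a further family gene outside the 5, had 1, 0 and 1 counts in wild-type and 0 in each knock-in heart, below the 3 counts taken as the floor of detection. It was picked for mention after its values were seen.

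**Figure D1:**
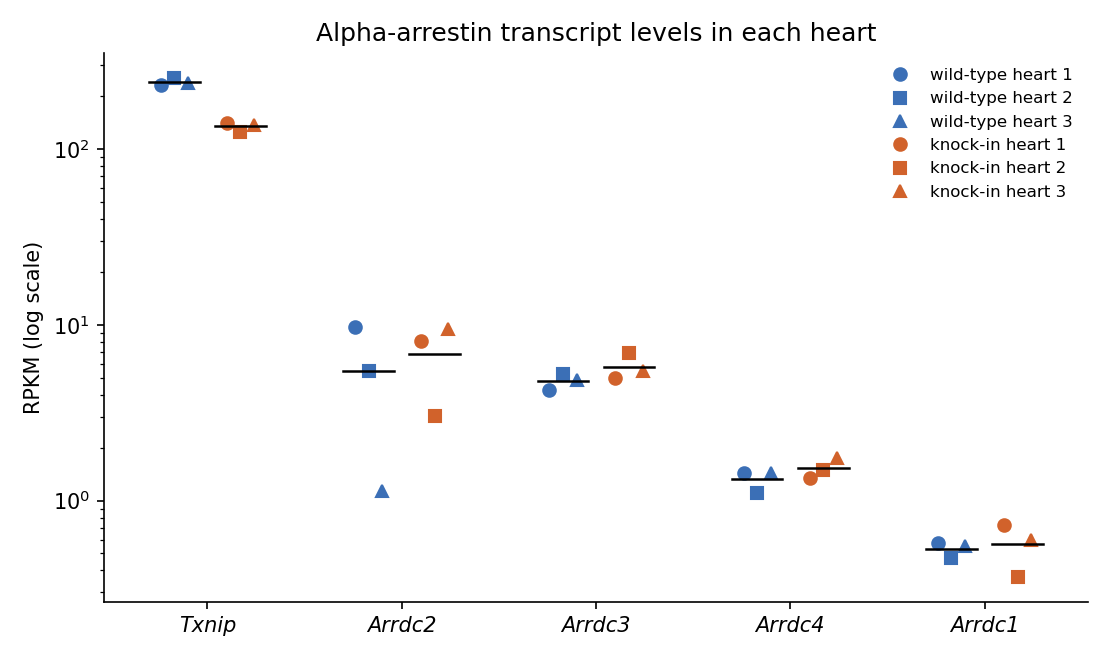
RPKM of each alpha-arrestin in each heart, on a log axis; symbols are single hearts (n = 3 per genotype) and black lines are genotype means. Txnip lies above 125 RPKM in each heart and drops without overlap in the knock-in hearts, while Arrdc2 spreads from 1.13 to 9.66 RPKM.

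Txnip (ENSMUSG00000038393, chromosome 3, 96557957 to 96561883, plus strand, GRCm38) fell in the knock-in hearts. Its wild-type counts were 10614, 11428 and 10708, and its knock-in counts 6734, 5938 and 6301. On the TMM scale these are 724, 791 and 741 CPM against 438, 391 and 429 CPM. The genotypes did not overlap, and the highest knock-in heart stood well below the lowest wild-type heart. Such separation was seen in 16.1% of all tested genes. The log2 fold change, knock-in over wild-type, was −0.84 ± 0.09 (SE) with a 95% interval of −1.04 to −0.64 (edgeR adjusted p = 0.00379). Txnip was the 1 alpha-arrestin of 5 called at an adjusted p under 0.05, a threshold that 0.297% of all tested genes passed (0.188% lower in knock-in). By RPKM it ranked 165 to 180 of 12762 genes in wild-type and 297 to 330 in knock-in hearts. Hearts of the same genotype differed by at most 1.12-fold. DESeq2 also called Txnip alone among the 5 (log2 fold change −0.84), where 0.95% of all genes with an adjusted p were called. The edgeR call was lost without wild-type heart 2 (edgeR adjusted p = 0.0525) and without knock-in heart 3 (edgeR adjusted p = 0.0642), with log2 fold changes of −0.80 and −0.86. Without both wild-type heart 3 and knock-in heart 2 it was −0.80 (edgeR adjusted p = 2.64e-05).

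Part of the Txnip locus is also annotated on the opposite strand. The antisense gene Gm15441 (chromosome 3, 96555765 to 96566801) shares 606 exon bases with Txnip, 19.4% of the joined Txnip exons, and its exons cover the C247S codon. Its counts were 13, 17 and 10 in wild-type and 17, 7 and 2 in knock-in hearts, overlapping between genotypes (log2 fold change −0.67 ± 0.56 SE, edgeR adjusted p = 0.761). That value rested on single libraries, at −1.57 without knock-in heart 1, −0.22 without knock-in heart 3 and −1.01 with limma-voom or with the mitochondrial share as a covariate. Whether counting used strand is not stated, so reads from the shared bases cannot be told apart and both genes are uncertain there. Gm15441 had 2 to 17 counts per library against at least 5938 for Txnip. Of the 31-base words of the longest transcript, 19.9% of Txnip occur in other genes (19.6% in Gm15441). The share was 0.0% for Arrdc1, Arrdc2 and Arrdc4 and 0.244% for Arrdc3.

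Markers of some cell types differed between the genotypes beside Txnip, while those of others overlapped. Red-cell markers summed to 464 to 636 CPM in wild-type and 1449 to 1919 CPM in knock-in hearts, with 5 of 6 genes called higher (Hbb-bs, Hbb-bt, Hba-a1, Hba-a2 and Alas2). Over all tested genes 0.297% were called by edgeR, 0.11% higher and 0.188% lower in knock-in hearts. Macrophage markers summed to 278 to 317 against 210 to 226 CPM, with 1 of 6 called lower (Lyz2, lysozyme). All 6 were negative, with a median log2 fold change of −0.42, and 3 had an unadjusted p under 0.05 (9.97% of all tested genes had). Smooth muscle and pericyte markers summed to 635 to 695 against 542 to 560 CPM, with 1 of 6 called lower (Acta2, smooth muscle actin, −1.24 on the log2 scale). The other members of that list did not follow Acta2: 4 of the 6 were positive, and the list's median was 0.09. Cardiomyocyte markers summed to 53578 to 57494 against 59877 to 66679 CPM, with 1 of 6 called higher (Myl2, a myosin light chain). These called markers are named after their values were seen. Endothelial markers (484 to 664 against 458 to 664 CPM) and fibroblast markers (446 to 455 against 440 to 503 CPM) overlapped, with 0 of 12 called by edgeR and 1 at an unadjusted p under 0.05. With 0.297% of all tested genes called, 0 of 12 says little. The part of any of these cell types in the Txnip result was not tested. In bulk tissue, fewer cells of a type and less RNA per cell cannot be told apart.

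Arrdc4 (ENSMUSG00000042659, chromosome 7, 68736995 to 68749241, minus strand), the close relative of Txnip, did not pass the test. Its counts were 85, 64 and 84 in wild-type and 83, 91 and 104 in knock-in hearts, or 5.79, 4.43 and 5.81 against 5.40, 6.00 and 7.09 CPM. The genotypes overlapped, with knock-in heart 3 highest and wild-type heart 2 lowest. The genotype difference on the log2 scale was 0.20 ± 0.19 (SE; 95% interval −0.22 to 0.63, edgeR adjusted p = 0.800). The interval of Arrdc4 lies wholly above that of Txnip, as does that of Arrdc3, while that of Arrdc2 overlaps it. The interval of Arrdc1 lies above it only barely, with a lower limit of −0.62 against an upper limit of −0.64 for Txnip.

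Arrdc3 (ENSMUSG00000074794, chromosome 13, 80883384 to 80896042, plus strand), the receptor adaptor, did not pass either. It stood at 26.7, 32.8 and 30.5 CPM in wild-type and 31, 43.2 and 34.1 CPM in knock-in hearts. The genotypes overlapped only because wild-type heart 2 lay above knock-in heart 1, and knock-in heart 2 was highest. The genotype difference on the log2 scale was 0.27 ± 0.14 (SE; 95% interval −0.05 to 0.58, edgeR adjusted p = 0.592). Without knock-in heart 2 it was 0.13, and without wild-type heart 3 as well it was 0.14.

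Arrdc2 (ENSMUSG00000002910, chromosome 8, 70835129 to 70839720, minus strand) varied more between hearts of the same genotype than any other member. Wild-type hearts had 458, 256 and 53 counts, and knock-in hearts 399, 148 and 446. In CPM these are 31.2, 17.7 and 3.67 against 26.0, 9.75 and 30.4. Wild-type heart 3 and knock-in heart 2 were low, and the other hearts of both genotypes overlapped. The highest wild-type heart exceeded the lowest by 8.51 times, where counting error alone gives a coefficient of variation of 4.67% to 13.7%. The genotype difference on the log2 scale was 0.33 ± 0.79 (SE; 95% interval −1.67 to 2.32, edgeR adjusted p = 0.951), so even a change of several fold in either direction was not resolved. It became −0.15 ± 0.50 without wild-type heart 3, 0.70 ± 0.90 without knock-in heart 2 and 0.21 ± 0.27 without both low hearts.

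Arrdc1 (ENSMUSG00000026972, chromosome 2, 24925352 to 24935252, minus strand), the vesicle-release adaptor, was limited by depth. Its counts were 21, 17 and 20 in wild-type and 28, 14 and 22 in knock-in hearts, or 1.43, 1.18 and 1.38 against 1.82, 0.922 and 1.5 CPM. The genotypes overlapped, and both the highest and the lowest value came from knock-in hearts. Counting error at these depths is 18.9% to 26.7% per library. The genotype difference on the log2 scale was 0.09 ± 0.32 (SE; 95% interval −0.62 to 0.80, edgeR adjusted p = 0.971). It was 0.33 without knock-in heart 2, 0.35 without both knock-in heart 2 and wild-type heart 3, and −0.13 without knock-in heart 1.

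**Figure D2:**
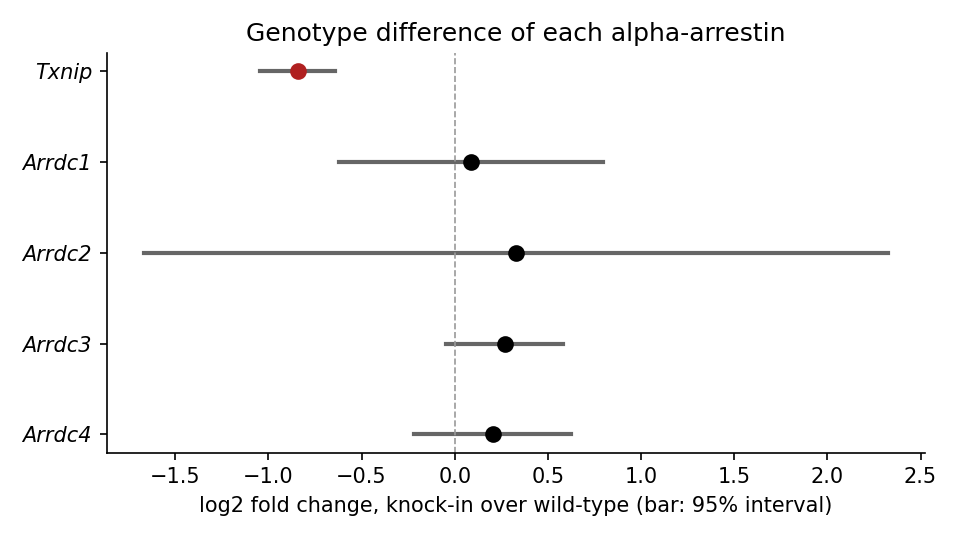
Log2 fold change of each alpha-arrestin, knock-in over wild-type, from the edgeR fit over 6 hearts; bars are 95% intervals and the red point is the member with an adjusted p under 0.05. Txnip lies at −0.84, the other 4 intervals include 0, and that of Arrdc2 is the widest.

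The members were also compared heart by heart. The root-mean-square difference between the log2 CPM profiles of a pair, each centred on its own mean over the 6 hearts, was smallest for Arrdc3 with Arrdc4 (0.26) and next for Arrdc1 with Arrdc4 (0.32). These members varied little, with a highest over lowest heart of 1.62 for Arrdc3, 1.60 for Arrdc4 and 1.98 for Arrdc1. The measure is not scaled to that spread, so a small value does not show that a pair moved together. Txnip differed from Arrdc1 by 0.50, from Arrdc4 by 0.56, from Arrdc3 by 0.59 and from Arrdc2 by 1.26. In knock-in heart 2 Arrdc2 and Arrdc1 were at their lowest among knock-in hearts, while Arrdc3 was at its highest of all 6.

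**Figure D3:**
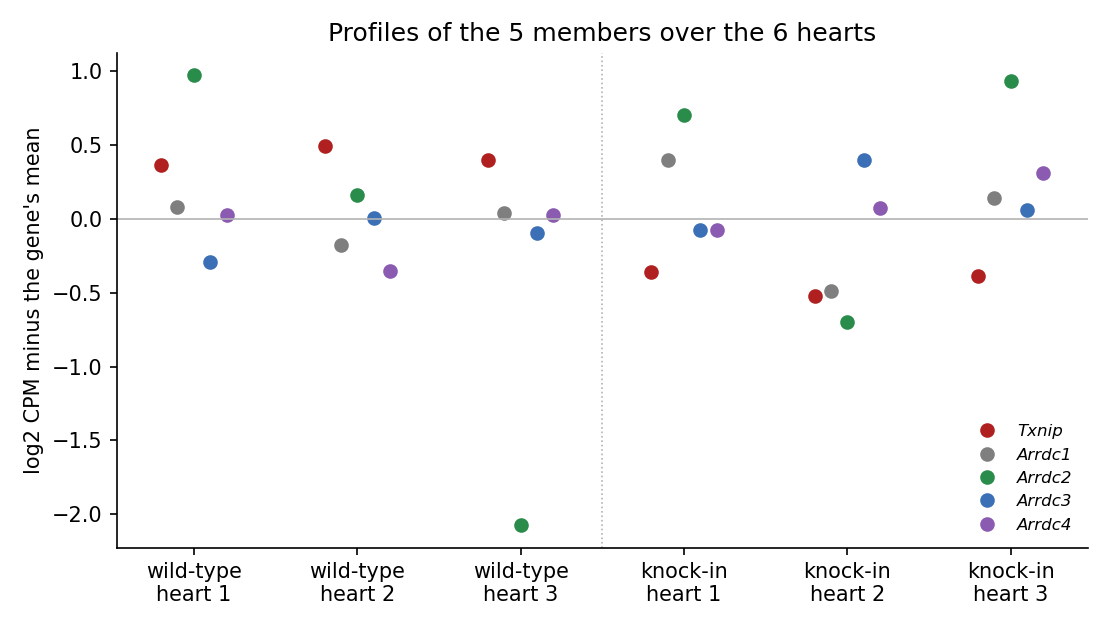
Log2 CPM of the 5 members in each heart minus the gene's mean over the 6 hearts; each point is 1 gene in 1 heart. Txnip separates the genotypes, with 0.37 to 0.50 in wild-type and −0.52 to −0.36 in knock-in hearts, whereas Arrdc2 is lowest in wild-type heart 3 at −2.07.

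Ratios within a library, which do not depend on library scaling, compared the Txnip difference with that of each relative. The log2 ratio of Txnip to Arrdc4 counts was 6.96, 7.47 and 6.99 in wild-type and 6.33, 6.02 and 5.91 in knock-in hearts. It was lower by 1.05 on the log2 scale in the knock-in hearts, or 2.07-fold, without overlap. The ratio of Txnip to Arrdc3 was 4.76, 4.59 and 4.60 against 3.82, 3.18 and 3.65, a 2.15-fold difference without overlap. The ratio of Txnip to Arrdc1 was 8.95, 9.35 and 9.03 against 7.88, 8.68 and 8.13, a 1.84-fold difference without overlap. The ratio of Txnip to Arrdc2 overlapped, at 4.53, 5.48 and 7.65 against 4.08, 5.32 and 3.82. Its difference of −1.48 was −0.60 without wild-type heart 3. Exact two-sided permutation tests over the 6 hearts gave p = 0.1 for Arrdc1, Arrdc3 and Arrdc4, the smallest that 3 against 3 allows, and p = 0.2 for Arrdc2. None of the 4 ratios can therefore pass 0.05, with or without adjustment over the 4.

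**Figure D4:**
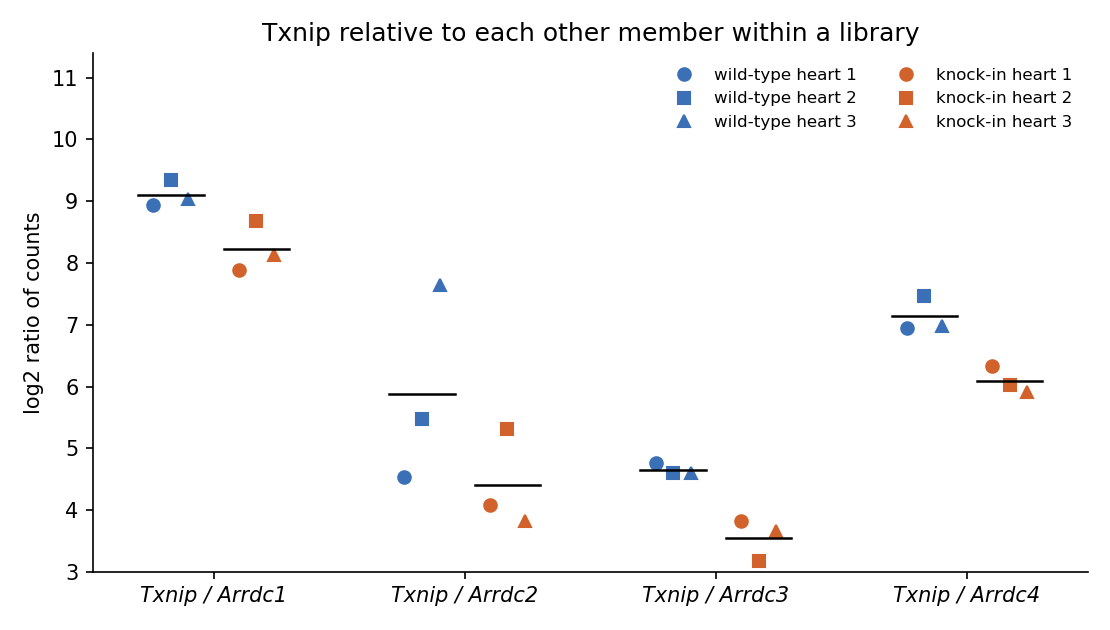
Log2 ratio of Txnip counts to those of each other member in each heart (0.5 added to each count); symbols are single hearts and black lines are genotype means. The genotypes separate for Arrdc1, Arrdc3 and Arrdc4, and overlap for Arrdc2, where wild-type heart 3 stands apart at 7.65.

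Txnip made up most of the family's transcripts in both genotypes. Its share of the summed RPKM of the 5 genes was 93.6%, 95.4% and 96.7% in wild-type and 90.3%, 91.4% and 88.9% in knock-in hearts. The genotypes did not overlap, with a mean difference of −5.03 percentage points (exact two-sided permutation p = 0.1, the smallest possible). With Arrdc2 left out of the sum, an alternative chosen after seeing the data, the shares were 97.2% to 97.4% against 93.5% to 95.2%, a difference of −2.87 percentage points. The summed RPKM of Arrdc1 to Arrdc4 was 15.9, 12.3 and 8.0 in wild-type and 15.0, 11.8 and 17.2 in knock-in hearts. These overlapped (difference 2.61 RPKM, exact two-sided permutation p = 0.5), and most of their spread was that of Arrdc2. The difference was 0.571 RPKM without wild-type heart 3 and 4.06 RPKM without knock-in heart 2. Without Arrdc2 the sum was 6.26, 6.79 and 6.86 against 7.02, 8.75 and 7.79 RPKM, without overlap (difference 1.21 RPKM). Arrdc2 was left out after its values were seen, so this separation is a description and no test. Most of the remaining sum was Arrdc3, at 4.25 to 6.90 RPKM, which overlapped between genotypes and was not called (edgeR adjusted p = 0.592). The difference of 1.21 RPKM compares with −106 RPKM for Txnip itself.

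No gene was called in the lists of genes that work with alpha-arrestins, where 0.297% of all tested genes were called. With so low a share, no calls in lists this short says little about these genes. Of the NEDD4-family ligases and their adaptors 10 of 11 were tested, and 0 were called by edgeR (6 positive, 4 negative, median log2 fold change 0.01). No member had an unadjusted p under 0.05. The member with the smallest p was Ndfip2, a membrane adaptor that activates these ligases, with a log2 fold change of −0.19 ± 0.12 (SE; edgeR adjusted p = 0.662). The 8 ESCRT and vesicle genes had 0 calls, a median of 0.01 and no member with an unadjusted p under 0.05. Vps4b, an ATPase of membrane scission, had the smallest p among them (0.15 ± 0.11 SE, edgeR adjusted p = 0.748). It was 0.08 without wild-type heart 1 and 0.22 without both wild-type heart 3 and knock-in heart 2. The median over all 12777 genes was −0.01, and 9.97% of them had an unadjusted p under 0.05.

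Among 9 membrane proteins handled by alpha-arrestins, including the glucose transporters Slc2a1 and Slc2a4, 0 were called (3 positive, 6 negative, median −0.16) and 1 had an unadjusted p under 0.05. That gene was Adrb1, the main beta-adrenergic receptor of heart muscle. It stood at 10.6, 10.7 and 15.8 CPM in wild-type and 6.70, 9.68 and 7.09 CPM in knock-in hearts, without overlap. Groups did not overlap in 16.1% of all tested genes, and Adrb1 was named for its small p. The genotype difference of Adrb1 on the log2 scale was −0.66 ± 0.20 (SE; edgeR adjusted p = 0.274). Without a filter on low counts Adrb1 was called (edgeR adjusted p = 0.0171), in a setting that called 317 genes against 38 with the filter. The difference was smaller with the mitochondrial share as a covariate (−0.39, edgeR adjusted p = 0.464) and without wild-type heart 3 (−0.44, edgeR adjusted p = 0.508). Without both wild-type heart 3 and knock-in heart 2 it was −0.62 (edgeR adjusted p = 0.0535).

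Of 12 transcription factors known at the Txnip promoter, 0 were called (7 positive, 5 negative, median 0.11) and 2 had an unadjusted p under 0.05. Of all tested genes 9.97% had such a p, and 16.1% did not overlap between the genotypes. Genes named here for the smallest p of a list are therefore likely not to overlap. Mlxipl, which encodes ChREBP, had the smallest p of these factors. It stood at 21, 15.3 and 12.7 CPM in wild-type and 10.6, 9.16 and 9.54 CPM in knock-in hearts, without overlap. Its genotype difference on the log2 scale was −0.74 ± 0.18 (SE; edgeR adjusted p = 0.173). Mlxipl was called without a filter (edgeR adjusted p = 0.00121) and without both wild-type heart 3 and knock-in heart 2 (edgeR adjusted p = 0.00794). Those settings called 317 and 392 genes, against 38 with the filter and all 6 hearts. Mlxipl stayed uncalled under 15 of 17 alternatives, at −0.52 without wild-type heart 1 (edgeR adjusted p = 0.449) and −0.72 without knock-in heart 3 (edgeR adjusted p = 0.552). Of 12 genes for proteins that bind or modify Txnip 11 were tested, with 0 called (7 positive, 4 negative, median 0.11) and 2 at an unadjusted p under 0.05. Txn1, the cytosolic thioredoxin that Txnip binds, was at 55.9, 57.3 and 47.0 against 72.2, 62.7 and 66.0 CPM, without overlap (0.33 ± 0.11 SE, edgeR adjusted p = 0.346), and its difference was 0.21 with the mitochondrial share as a covariate. Of 9 other arrestin-fold genes 6 were tested, with 0 called, a median of 0.03 and no unadjusted p under 0.05. Arrb1, a beta-arrestin that desensitises receptors, had the smallest p there (0.28 ± 0.18 SE, edgeR adjusted p = 0.675). It was 0.49 without knock-in heart 2 (edgeR adjusted p = 0.0978), 0.15 without knock-in heart 3 and 0.16 with the mitochondrial share as a covariate.

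None of the tested neighbouring protein-coding genes of the 5 loci was called either, which says little where 0.297% of all tested genes were called. Of the 10 nearest genes on either side 6 had enough counts, and their log2 fold changes ran from −0.65 to 0.17 with 0 called by edgeR and 0 at an unadjusted p under 0.05. Hfe2 and Gm16253 flank Txnip, Ehmt1 and Zmynd19 flank Arrdc1, Il12rb1 and Kcnn1 flank Arrdc2, Nr2f1 and Adgrv1 flank Arrdc3, and Fam169b and Nr2f2 flank Arrdc4. Hfe2, which lies 28747 bases before Txnip, had 3914, 3963 and 3585 counts in wild-type and 4301, 3836 and 3597 in knock-in hearts, overlapping between the genotypes.

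The genes whose profile over the 6 hearts was most like that of Txnip were sought among 7345 genes with a mean of at least 10 CPM. The measure was again the root-mean-square difference between centred log2 CPM profiles. Ccl6, a chemokine gene, was nearest (0.08), followed by Gcat, an enzyme of threonine breakdown (0.10), and Ugp2, which makes UDP-glucose (0.11). Ccl9, another chemokine gene, and Cited4, a transcriptional coregulator, came next (both 0.14). Ccl6 stood at 20.5, 22.2 and 19.6 CPM in wild-type and 13.3, 12.3 and 12.4 CPM in knock-in hearts. Ugp2 stood at 507, 534 and 567 against 342, 330 and 315 CPM. Of the 5, Ccl6, Gcat, Ugp2 and Cited4 were called lower by edgeR (adjusted p from 0.0143 to 0.0399) and Ccl9 was not (edgeR adjusted p = 0.139). All 4 calls were lost without wild-type heart 2 and also without knock-in heart 3 (edgeR adjusted p from 0.107 to 0.275). Those of Ccl6, Gcat and Cited4 were also lost without wild-type heart 1, wild-type heart 3 or knock-in heart 1. The same held with the mitochondrial share as a covariate (edgeR adjusted p from 0.0616 to 0.162 over these settings). Ugp2 kept its call in these settings (edgeR adjusted p from 0.0311 to 0.0423). With limma-voom the calls of Ccl6 and Cited4 were lost as well (limma adjusted p = 0.0542 and 0.0510). Since the 5 genes were chosen for sharing the Txnip profile, their direction is a description and no test of it.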

How the data were processed

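Raw counts per Ensembl gene, 1 column per heart, were deposited by the authors in a single table without scaling. The submitters' processing notes list the build GRCm38.p6 and, as tools, featureCounts, STAR, DESeq2 and Subread 1.5.2, without saying what each did. Strand setting, annotation release and how multiply matching reads were handled are not stated in these sources. Libraries came from total RNA and a NEBNext Ultra II kit, per the labels' protocols. Columns were matched to samples by their descriptions. GENCODE M21 (GRCm38) held 49056 of 49315 identifiers. No pair of replicates came within sampling noise of each other, so each heart counted once.

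All genes were fitted with edgeR 4.0.16 in R 4.3.3 (filterByExpr, TMM, robust glmQLFit, glmQLFTest on genotype, no covariate), with Benjamini-Hochberg adjustment over all tested genes. Standard errors were taken from the size of the log2 fold change and its F statistic. Only the edgeR fit was tried on simulated counts, drawn from its own fitted means and dispersions. That trial held no hearts that stand apart, so it cannot show how the fit handles them. Alternatives were DESeq2 1.42.0, limma 3.58.1 (voom), other scalings and filters, the mitochondrial share as a covariate, and hearts left out. The detection floor of 3 counts equals 0.195 to 0.208 CPM. It covers counting error only, since the reads carry no stated molecular identifiers.

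The members, lists and alternatives were chosen with earlier results of these data known. Named genes are the members, up to 4 called genes of each pathway list or else the gene with the smallest p, overlapping and flanking genes, and the 5 nearest profiles to Txnip among genes with a mean of at least 10 CPM and no predicted symbol. Others are marked as named after their values were seen. There were 6 pathway lists and 10 cell type lists, of which those of lymphocytes, fat, skeletal muscle and lung had no testable gene.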

Additional observations from a re-analysis of the deposited data

How the results depend on the processing

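Txnip kept its direction under all 17 alternatives, with log2 fold changes from −0.88 to −0.78 and edgeR, DESeq2 or limma adjusted p from 9.76e-12 to 0.0642. Leaving out single hearts gave −0.87 to −0.78, and the call was lost without wild-type heart 2 (−0.80) and without knock-in heart 3 (−0.86). Arrdc3 (0.13 to 0.38) and Arrdc4 (0.09 to 0.32) kept their sign and stayed uncalled under each alternative. Arrdc1 turned to −0.13 without knock-in heart 1, within −0.13 to 0.33 over the single hearts left out. Arrdc2 turned to −0.41 with the mitochondrial share as a covariate and to −0.15 without wild-type heart 3, within −0.15 to 1.04 over single hearts; the cause was not tested. Over single hearts left out, the log2 ratio of Txnip to Arrdc3 differed by −1.24 to −0.92, to Arrdc4 by −1.17 to −0.88, to Arrdc1 by −1.10 to −0.71 and to Arrdc2 by −2.16 to −0.60. In these tests of 2 against 3 the smallest exact permutation p is 0.2. The Txnip share differed by −5.86 to −4.27 percentage points over single hearts and by −6.81 to −2.87 over all alternatives, and the summed RPKM of Arrdc1 to Arrdc4 by 0.571 to 4.53 over single hearts. Arrdc2 took place 3 and Arrdc3 place 2 without length correction and without wild-type heart 1.

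The number of called genes, 38, became 317 without a filter, 134 with DESeq2, 24 with limma-voom, 14 with the mitochondrial share as a covariate, 75 at an adjusted p under 0.1 and 392 without both wild-type heart 3 and knock-in heart 2. Single hearts left out gave 5 to 174: 14, 5 and 13 without wild-type hearts 1, 2 and 3, 174 without knock-in heart 2 and 6 without knock-in heart 3. The cause was not tested. No paired analysis was possible because the labels give no replicate numbers shared by the genotypes. Depth limits Arrdc1, with 14 to 28 counts per heart.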

Other observations

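The spread of Arrdc2 between hearts was shared by other genes. The search for nearest profiles was extended to Arrdc2 and Arrdc3 after their values were seen, so what follows is description. The 5 genes nearest to Arrdc2 among 7345 were Adh1, Fam107a, Gadd45g, Fkbp5 and Fam117b (root-mean-square differences of 0.35 to 0.49 in log2 CPM). Fkbp5 encodes a co-chaperone of the glucocorticoid receptor and is known to be induced by glucocorticoids. It stood at 45.9, 32.5 and 14.8 CPM in wild-type and 67.9, 21.1 and 49.8 CPM in knock-in hearts. Fam107a stood at 21.4, 16.3 and 3.67 against 42.0, 12.1 and 30.9 CPM. Adh1, an alcohol and retinol dehydrogenase, stood at 27.6, 21.6 and 6.78 against 41.4, 14.8 and 33.6 CPM. All 5 genes were lowest in wild-type heart 3 among the wild-type hearts and in knock-in heart 2 among the knock-in hearts, as Arrdc2 was. None of the 5 was called between the genotypes (edgeR adjusted p from 0.733 to 0.826).

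The 5 genes nearest to Arrdc3 were Tmem182, Tbx5, Hadhb, Thap12 and Dcaf8, with root-mean-square differences of 0.04 to 0.06. The measure is not scaled to a gene's own spread, so these values cannot be ranked against those for Arrdc2. Over the 6 hearts the highest value exceeded the lowest by 1.62 times for Arrdc3 and by 8.51 times for Arrdc2. Tbx5, a transcription factor of heart development, stood at 12.5, 16.1 and 14.1 CPM in wild-type and 15.2, 20.5 and 17.2 CPM in knock-in hearts. Hadhb, a subunit of the mitochondrial trifunctional protein of fatty acid oxidation, stood at 1317, 1557 and 1585 against 1510, 2059 and 1752 CPM. Knock-in heart 2 was the highest of the 6 for all 5, as it was for Arrdc3, and none was called between the genotypes (edgeR adjusted p from 0.538 to 0.760).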
